A study of Mus musculus with 8 samples.

Results

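The 7 genes examined here encode the Fos and Jun subunits of the transcription factor AP-1: Fos, Fosb, Fosl1, Fosl2, Jun, Junb and Jund. They were chosen by gene family, with their differences between genotypes already known, and make up 7 of the 52636 genes in the count table. RNA was sequenced from mesenchymal stem/progenitor cells (MSPCs), the bone marrow stromal cells that make niche factors for hematopoietic stem cells. Of the 8 mice, 4 were CTL (Flk2-cre+ Cxcr4fl/+) and 4 were cKO (Flk2-cre+ Cxcr4fl/fl), each giving 1 library. All mice were on the C57BL/6 background, all carried the Cre transgene, and the CTL mice already carried 1 floxed Cxcr4 allele. Flk2-cre, inserted on the Y chromosome according to the methods, deletes floxed Cxcr4, the receptor for CXCL12, in hematopoietic progenitors and not in MSPCs. The labels give an age of 6 weeks, whereas the methods give an older range for all mice. The cells were freed with collagenase at a warm temperature, sorted in 2 rounds as CD45- Ter119- CD31- CD144- PDGFRα+ SCF-GFP+, and their polyA RNA was sequenced. SCF-GFP is a reporter at the Kitl locus, so sorting on it means that the mice carried a Kitl-GFP allele, which the genotypes above do not name. Kitl encodes SCF. In the paper, cKO mice with 1 such allele had membrane-bound SCF and stem cell numbers back at control levels.

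AP-1 binds DNA as a dimer. Jun proteins pair with each other or with Fos proteins, whereas Fos proteins need a Jun partner. Fos, Fosb, Jun and Junb are rapid-response genes, transcribed within minutes of growth factor, cytokine or stress signals through MAP kinases acting on SRF, ELK and CREB family factors. Jund is more evenly expressed, and in bone Fosl2, Fosl1 and the Fosb splice form ΔFosB are known for their roles in osteoblasts.

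Depth was similar between genotypes, with 31047344 to 38216877 counts per library and 18366 to 20684 genes with a count. Lepr, the marker of the sorted stroma, had 117089 to 176756 counts in every library. The hematopoietic marker Ptprc had 0 to 32 counts and the endothelial marker Pecam1 0 to 52. Cxcr4 itself had 4 to 19 counts in the CTL libraries and 0 to 12 in the cKO libraries, and since it is not deleted in these cells it does not check the genotype labels. Each sample title holds a number. CTL2, CTL4, cKO2 and cKO4 carry numbers from 26 to 32, and CTL1, CTL3, cKO1 and cKO3 numbers from 67 to 86. What the number stands for is not given.

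The members lie on 6 chromosomes. On GRCm38 (GENCODE M21), Fos is at chr12:85473890-85477273 on the plus strand and Fosb at chr7:19302696-19310051 on the minus strand. Fosl1 is at chr19:5447547-5455946 and Fosl2 at chr5:32135801-32157842, both on the plus strand. Jun, a gene of 1 exon, is at chr4:95049034-95052222 on the minus strand. Junb, at chr8:84974484-84978718 on the minus strand, and Jund, of 1 exon at chr8:70698949-70700616 on the plus strand, share a chromosome. The 150 bases before the RefSeq start of the 4 rapid-response members (GRCm38.p6, 5′ to 3′ on the gene's strand) are shown for the short elements searched in them. SRF and ELK sites were not searched. Capitals mark TGACG, the core of a CREB site, TGACATCA, the AP-1-like site of the Jun promoter, and TATAAA, the core promoter element bound by TBP.
Fos chr12:85473740-85473889: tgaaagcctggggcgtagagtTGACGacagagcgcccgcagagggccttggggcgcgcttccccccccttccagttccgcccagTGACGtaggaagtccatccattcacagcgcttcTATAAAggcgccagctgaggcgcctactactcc
Fosb chr7:19310046-19310195: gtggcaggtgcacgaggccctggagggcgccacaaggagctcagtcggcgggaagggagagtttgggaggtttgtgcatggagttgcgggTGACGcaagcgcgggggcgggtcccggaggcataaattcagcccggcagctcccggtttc
Jun chr4:95052223-95052372: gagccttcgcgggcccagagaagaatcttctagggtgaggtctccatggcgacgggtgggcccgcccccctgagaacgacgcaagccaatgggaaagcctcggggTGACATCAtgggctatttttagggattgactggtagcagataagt
Junb chr8:84978749-84978898: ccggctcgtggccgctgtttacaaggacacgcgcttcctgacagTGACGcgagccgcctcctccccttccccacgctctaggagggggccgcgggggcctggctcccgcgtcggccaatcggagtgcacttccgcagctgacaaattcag

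The Fos sequence holds TGACG starting 129 and 66 bases before the start and TATAAA 33 bases before it. Fosb and Junb hold TGACG 60 and 106 bases before the start, and Jun holds TGACATCA 45 bases before it. RefSeq windows from 250 bases before to 50 after the start were given for 6 of the 7 members, all but Fosl1. On either strand, TGACG was found in 3 of the 6 member windows and in 20.8% of all 32851 windows. TGACATCA was in 1 member window and 3.62% of all windows. TATAAA on the gene's strand was in 2 member windows, Fos and, at the start site itself, Junb, and in 8.32% of all windows. The AP-1 consensus TGANTCA was in 0 of the 6 and in 7.81% of all windows, which says only that these letters are not in these windows. The RefSeq start coincided with the GENCODE start for Fos and Jun, was 6 bases from it for Fosb and 30 for Junb, and was 671 bases away for Fosl2 and 1210 for Jund. Since these are letters in the reference sequence, no factor binding was measured.

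As sequenced after collagenase digestion and sorting, the MSPCs held the Jun genes and Fos at high levels and the other Fos genes at low levels. Levels in the marrow and levels induced by this handling cannot be told apart here. Levels of different genes were compared as CPM (counts relative to the TMM-scaled library total) per kilobase of gene model, averaged over the 8 libraries. Jund stood highest at a level of 151 CPM per kilobase ± 19.4 (SD, n = 8), with all libraries between 117 and 173. Fos followed at 93.9 ± 39.1 with libraries from 37.6 to 164, Junb at 72.1 ± 16.3 with libraries from 45.2 to 95.4, and Jun at 44.9 ± 12.5 with libraries from 28.3 to 60.8. These 4 genes were above 98.3%, 97.1%, 96.1% and 93.0% of the genes tested on this scale. Fosl2 at 1.84 ± 0.66, Fosb at 1.55 ± 0.91 and Fosl1 at 0.41 ± 0.45 CPM per kilobase stood at the 29.8, 26.8 and 7.98 percentiles. Fosl1 had at most 93 counts in a library and 0 in cKO4, where a count of 0 allows up to 3 counts or 0.0780 CPM. Such bounds cover counting error only.

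**Figure D1:**
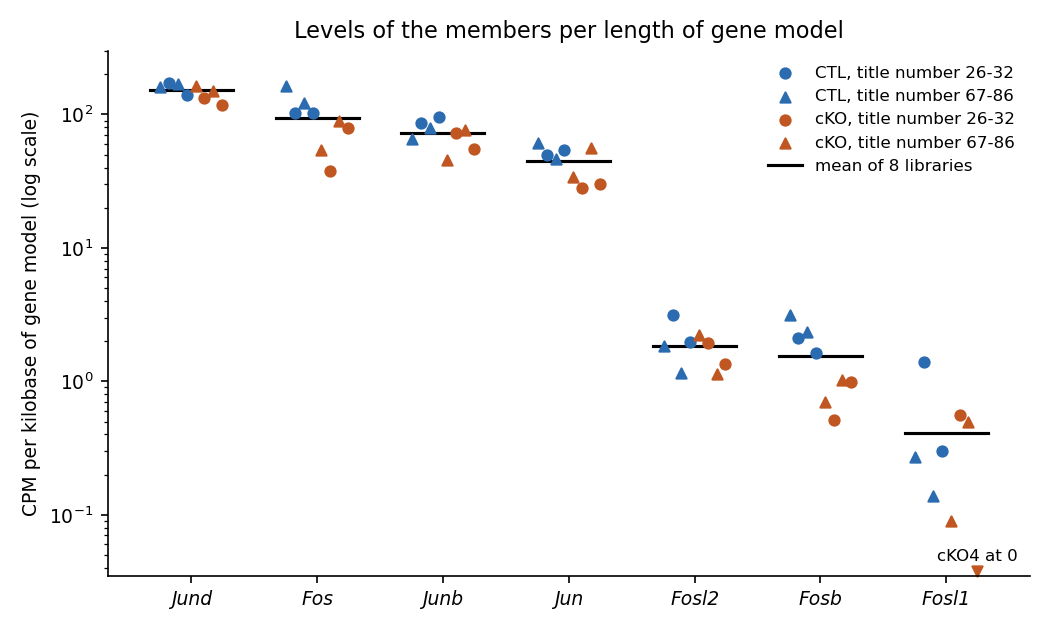
Level of each member in CPM per kilobase of gene model on a log axis, in order of the mean (black line, n = 8). Blue marks CTL and orange cKO libraries, circles title numbers 26 to 32 and triangles 67 to 86. Jund, Fos, Junb and Jun lie between 28.3 and 173 CPM per kilobase in every library, and Fosl2, Fosb and Fosl1 at or below 3.14.

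The order was tested between neighbours within each library by a two-sided exact sign-flip permutation test of log2 (counts per kilobase + 1), adjusted over 6 pairs. The level of Jund exceeded that of Fos by 0.80 on the log2 scale in the mean, in 7 of 8 libraries (adjusted p = 0.0234, exact permutation). Only in CTL1 was Fos above Jund. Junb exceeded Jun by 0.70 in 8 of 8 libraries, and Jun exceeded Fosl2 by 4.61 in 8 of 8 (adjusted p = 0.0234 for each, exact permutation). Fosb exceeded Fosl1 by 2.36 in 7 of 8 libraries (adjusted p = 0.0234, exact permutation). Fos exceeded Junb by 0.29 in 7 of 8 libraries (adjusted p = 0.291, exact permutation), and Fosl2 exceeded Fosb by 0.39 in 6 of 8 (adjusted p = 0.3125, exact permutation). Neither of these differences went beyond its spread across libraries. This order pools the genotypes. As a description, the mean of Fosb was above that of Fosl2 in CTL (2.30 and 2.03 CPM per kilobase) and below it in cKO (0.81 and 1.66), while the other neighbours kept their order in both. Without cKO2 the step from Fos to Junb was 0.47 and passed (adjusted p = 0.0234, exact permutation). Without division by length the steps from Jund to Fos (0.30, adjusted p = 0.258, exact permutation) and from Junb to Jun (0.23, adjusted p = 0.225, exact permutation) did not pass.

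Some gene models share bases with a neighbour. Jun overlaps Junos (269 to 554 counts), Junb overlaps Prdx2 (4025 to 5796), Jund overlaps Gm11175 (4750 to 5892) and Fosl1 overlaps Ccdc85b (340 to 679). Whether strand was used in counting is not given in the sources used here, so that reads in the shared stretches are uncertain. Fos, Fosb and Fosl2 overlap no other gene model.

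Between genotypes, the Fos and Fosb levels of the cKO MSPCs lay below those of the CTL MSPCs without overlap, and Jun, Junb, Jund and Fosl2 had lower means with overlapping libraries. The members were chosen with this contrast known, so that their values in it are given as a description with log2 fold changes and standard errors (SE) from edgeR, with no test. All 6 members with a count in every library had a negative log2 fold change, where 50.2% of the 14598 genes tested did. The median of the 6 was -0.44, beside -0.0013 over all genes tested and a median size of 0.14. Every cKO library was below every CTL library for 2 members, Fos and Fosb, and for 1.29% of all genes, while 2.62% of genes did not overlap in one direction or the other. In bulk RNA, fewer cells with a transcript and less transcript per cell cannot be told apart.

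**Figure D2:**
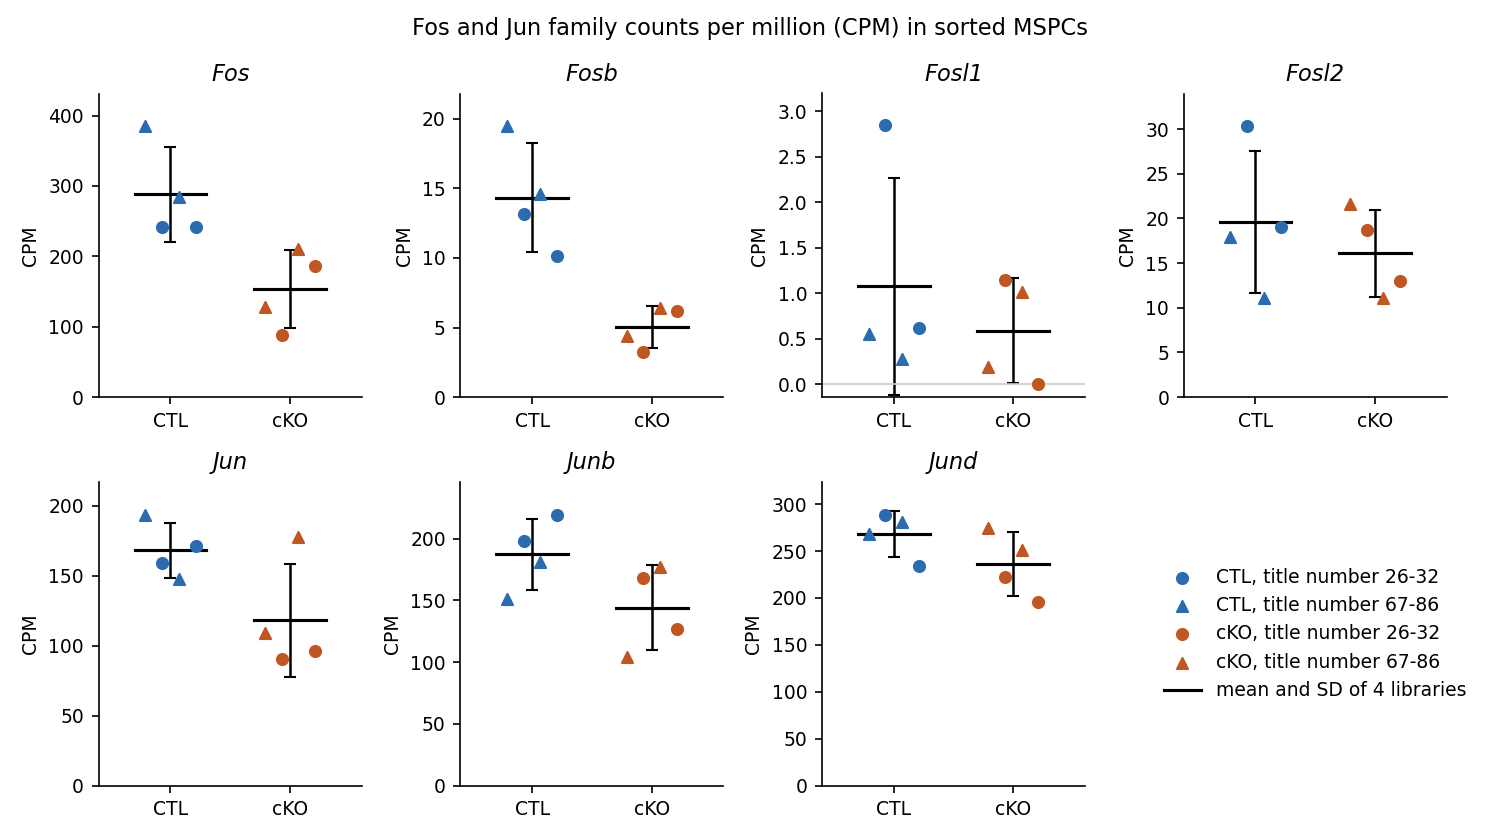
CPM of each member in the 4 CTL (blue) and 4 cKO (orange) libraries, with circles for title numbers 26 to 32 and triangles for 67 to 86. Horizontal lines are means and vertical bars SD (n = 4). The groups are apart for Fos and Fosb and overlap for the other 5 genes.

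Fos encodes c-Fos, the best-known inducible partner of Jun. Its levels were 385, 242, 284 and 242 CPM in CTL1 to CTL4 and 128, 88.5, 211 and 186 CPM in cKO1 to cKO4. CTL1 was the highest and cKO2 the lowest library, and 30.6 CPM separated the lowest CTL from the highest cKO library. With n = 4 each, the means ± SD were 288 ± 67.6 CPM in CTL and 153 ± 55.5 in cKO, a log2 fold change of -0.91 (SE 0.26). The genotype difference in mean log2 CPM was -0.91 inside title numbers 26 to 32 and -1.01 inside 67 to 86. Leaving out 1 library gave log2 fold changes from -1.10 to -0.72. Fos counts per library ran from 3103 to 11903, so that counting error was small beside the spread between mice.

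Fosb encodes FosB and its truncated form ΔFosB. It was at 19.5, 13.2, 14.6 and 10.1 CPM in CTL1 to CTL4 and at 4.38, 3.22, 6.40 and 6.22 CPM in cKO1 to cKO4. As for Fos, CTL1 was the highest and cKO2 the lowest library, the groups did not overlap, and the 4 cKO libraries stood in the same order. The CTL mean of 14.3 ± 3.90 CPM was 2.84 times the cKO mean of 5.05 ± 1.52 CPM (SD, n = 4 each), and the log2 fold change of -1.50 (SE 0.30) was the largest in size among the 6 members tested. It was -1.35 inside title numbers 26 to 32 and -1.66 inside 67 to 86, and from -1.64 to -1.32 with 1 library left out. Fosb was low, with 113 to 602 counts per library.

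Fosb was also lower relative to Fos in the cKO libraries, again as a description. Per kilobase, the Fosb level was 1.58% to 2.05% of the Fos level in the CTL libraries and 1.14% to 1.37% in the cKO libraries. The percentages did not overlap between genotypes, but no share was computed over other pairs of genes. Fos and Fosb were chosen with their genotype differences known, and Fosb rested on 113 to 602 counts per library. They were 1.91, 2.05, 1.94 and 1.58 in CTL1 to CTL4 and 1.29, 1.37, 1.14 and 1.26 in cKO1 to cKO4.

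Fosl2, which encodes Fra-2, showed no such separation. Its levels were 17.96, 30.3, 11.1 and 19.1 CPM in CTL1 to CTL4 and 21.6, 18.7, 11.1 and 13.0 CPM in cKO1 to cKO4. CTL2 was the highest, CTL3 and cKO3 were the lowest, and the genotypes overlapped over most of the range. The means were 19.6 ± 7.98 and 16.1 ± 4.92 CPM (SD, n = 4 each), with a log2 fold change of -0.29 (SE 0.32) that was -0.0037 without CTL2. The difference was -0.63 inside title numbers 26 to 32 and 0.13 inside 67 to 86, so that its sign turned between the ranges.

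Fosl1, which encodes Fra-1, was close to the limit of detection. It had 17, 93, 9 and 23 counts in CTL1 to CTL4 and 6, 40, 33 and 0 counts in cKO1 to cKO4. CTL2 held most of the CTL counts, and the groups overlapped. Since cKO4 had no count, the gene did not pass the filter of a count in every library. Without a filter its log2 fold change was -0.87 (SE 1.23), a fitted value that depends on the prior count, and it was -0.46 without cKO4. No difference was detectable at this depth.

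Jun encodes c-Jun, the main target of the JNK kinases. Its levels were 194, 160, 148 and 172 CPM in CTL1 to CTL4 and 109, 90.4, 178 and 96.0 CPM in cKO1 to cKO4. The cKO3 library stood among the CTL libraries, above 3 of them, and the other 3 cKO libraries lay below all CTL libraries. The means were 168 ± 19.7 and 118 ± 40.5 CPM (SD, n = 4 each), with a log2 fold change of -0.51 (SE 0.20) that was -0.77 without cKO3. The difference was -0.83 inside title numbers 26 to 32 and -0.28 inside 67 to 86, the range that holds cKO3.

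Junb, whose product can act as a weaker transactivator than c-Jun, was at 151, 198, 181 and 220 CPM in CTL1 to CTL4. In cKO1 to cKO4 it was at 104, 168, 177 and 127 CPM. CTL1, the highest library for Fos, Fosb and Jun, was the lowest CTL library for Junb, and cKO2 and cKO3 lay above it. The means were 188 ± 28.7 and 144 ± 34.5 CPM (SD, n = 4 each) and the log2 fold change was -0.38 (SE 0.18), with -0.51 inside title numbers 26 to 32 and -0.29 inside 67 to 86.

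Jund had the least spread of the 7, with a coefficient of variation over the 8 libraries of 12.8%, beside 22.6% for Junb, 27.8% for Jun, 41.7% for Fos and 58.5% for Fosb. Its levels were 268, 289, 281 and 234 CPM in CTL1 to CTL4 and 275, 222, 251 and 196 CPM in cKO1 to cKO4. CTL2 was the highest and cKO4 the lowest library, and cKO1 and cKO3 lay above CTL4. The means were 268 ± 24.3 and 236 ± 34.3 CPM (SD, n = 4 each), and the log2 fold change was -0.18 (SE 0.12), or -0.10 without cKO4. It was -0.32 inside title numbers 26 to 32 and -0.063 inside 67 to 86.

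**Figure D3:**
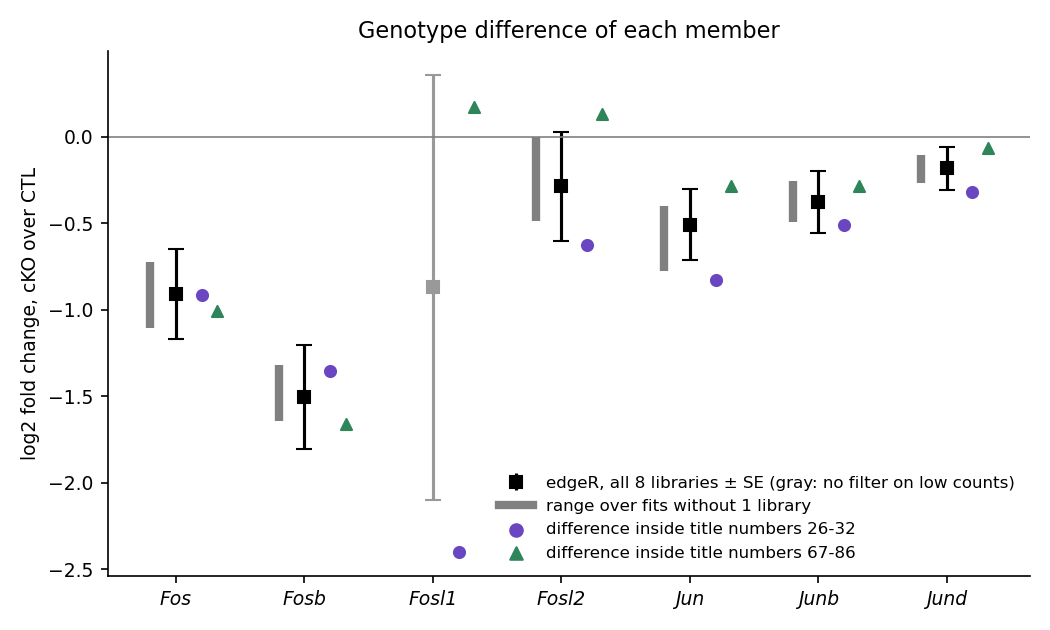
Log2 fold change of cKO over CTL for each member, with the edgeR value ± SE (squares, gray for Fosl1 without a filter), the range with 1 library left out (gray bars) and the differences inside title numbers 26 to 32 (purple circles) and 67 to 86 (green triangles). Fos and Fosb lie below -0.7 in every setting, and Fosl2 and Fosl1 change sign between ranges.

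Inside both title number ranges, 5 of the 6 members tested were lower in cKO, beside 27.1% of all genes, and Fosl2 was the exception. All 6 were lower in cKO with each library left out in turn, as were 27.5% of all genes. In edgeR, 0 genes of 14598 passed an adjusted p of 0.05 (0%), members included, and 646 genes (4.43%) had an unadjusted p below it. DESeq2's Wald test called 23 genes (0.158%). Its likelihood ratio test with the title number range called 47 genes (0.322%). These counts over all genes are given for description. Which members were among the called genes is left out, since this contrast chose the members.

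The sums over each subfamily set the Fos and Jun sides beside each other. The summed level of the 4 Fos genes was 107 to 169 CPM per kilobase in CTL and 40.6 to 92.4 in cKO, and Fos alone made up 92.6% to 97.1% of it. The summed level of the 3 Jun genes was 288 to 309 CPM per kilobase in CTL and 203 to 284 in cKO, and Jund made up 48.4% to 67.5% of it. Neither sum overlapped between genotypes, but the Jun sums nearly met, at 288 in CTL1 and 284 in cKO3. Jun, Junb and Jund each overlapped on their own, and the Fos sum mostly repeats Fos. No share over all genes was computed for such sums. The ratio of the Fos to the Jun sum was 0.588, 0.354, 0.424 and 0.369 in CTL1 to CTL4 and 0.235, 0.173, 0.326 and 0.401 in cKO1 to cKO4. It overlapped between genotypes through cKO4, which had the lowest Jun sum.

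**Figure D4:**
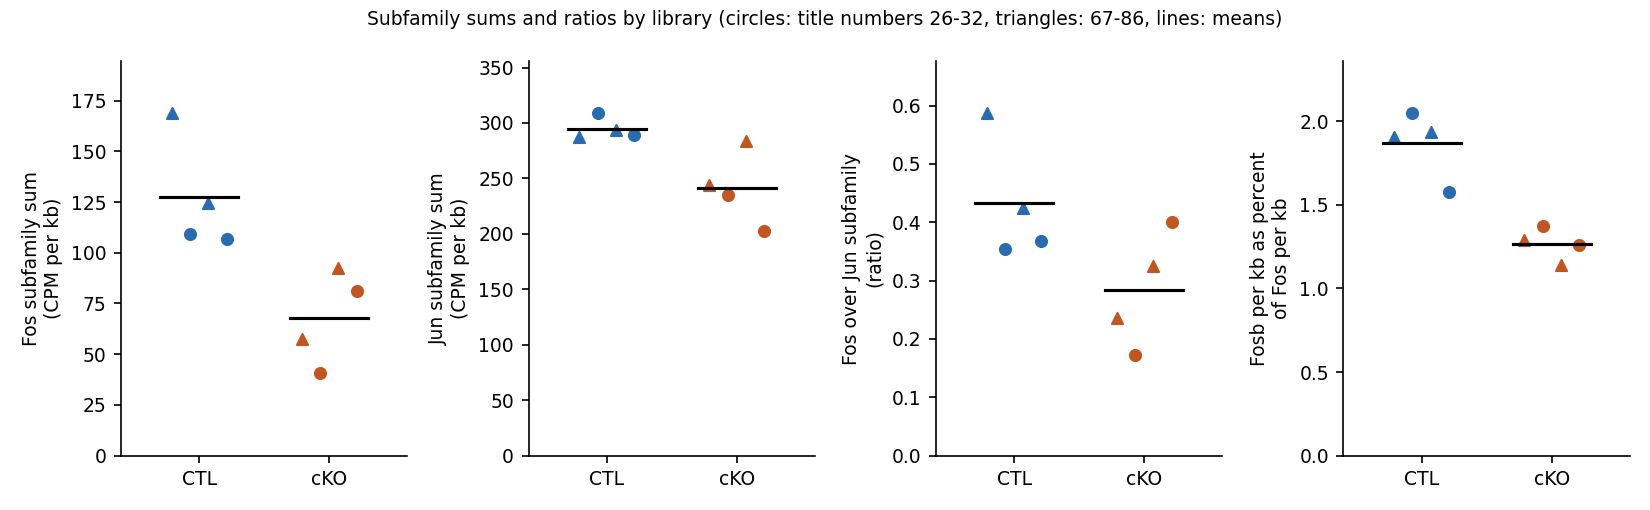
Summed levels of the Fos and Jun genes in CPM per kilobase, their ratio, and the Fosb level as a percentage of the Fos level, in each CTL (blue) and cKO (orange) library. Circles are title numbers 26 to 32, triangles 67 to 86, and lines are means of 4 libraries. The sums, narrowly for Jun, and the Fosb percentage are apart between genotypes, and the ratio overlaps. No share over other genes was computed for any of these measures.

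The title number range, which the choice of members did not use as a contrast, was tested with genotype in the same edgeR model. It called 2 of 14598 genes (0.0137%), Cldn1 and Srgn, which are no members and are named after their values were seen, and 1694 genes (11.6%) had an unadjusted p below 0.05. No member did, with 0 of 6 at the unadjusted threshold. The adjusted p-values of the 6 members lay between 0.495 and 0.692 (edgeR quasi-likelihood F-test, adjusted by Benjamini-Hochberg over all genes). The log2 fold changes of 67 to 86 over 26 to 32 were 0.39 (SE 0.24) for Fos, 0.37 (SE 0.28) for Fosb, 0.33 (SE 0.18) for Jun and 0.20 (SE 0.10) for Jund. For Junb the value was -0.20 (SE 0.17) and for Fosl2 -0.36 (SE 0.31). Thus 4 of 6 were positive, beside 49% of all genes. DESeq2's Wald test called 380 genes on this term.

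Genes with a pattern like that of Fos, Fosb and Jun were named by the root mean square difference of centred log2 CPM over the 8 libraries, among 9396 genes with a symbol and a mean of at least 10 CPM. The genes most like Fos were Dcaf17 (0.298), Naa60 (0.316), Junos (0.333), Ctu1 (0.341) and C9orf72 (0.349), beside a spread of Fos itself of 0.67 (SD) and a median over all candidates of 0.66. The genes most like Fosb were Gm38399 (0.476), Apex1, a DNA repair enzyme (0.501), Naa60 (0.511), Gm28592 (0.512) and Ikzf4 (0.516), beside a median of 0.867. Jun was matched most closely by Junos (0.081), the transcript that overlaps it and may share its reads, then by C9orf72 (0.205), Zfp36 (0.209), Tspan7 (0.217) and Phka2 (0.218). Zfp36 encodes the mRNA decay factor tristetraprolin, and Naa60 an acetyltransferase. These are descriptions of 8 libraries that share the genotype difference.

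The genes around AP-1 were followed in lists of dimer partners, upstream factors, kinases, feedback genes, other rapid-response genes and targets. In every list 0 genes passed an adjusted p of 0.05 between genotypes (edgeR quasi-likelihood F-test adjusted by Benjamini-Hochberg over all genes). In that test the adjusted p was 0.999 for every tested gene named from the lists, so that directions below are signs of estimates. Genes named but left out by the filter have no p-value. The number at an unadjusted p below 0.05 is given for each list. Over all genes tested, 50.2% had estimates below 0 and 4.43% an unadjusted p below 0.05 (edgeR). Every cKO library was below every CTL library for 1.29%.

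Of 14 dimer partners, the bZIP proteins that pair with Fos or Jun, 11 were tested, with 6 higher and 5 lower in cKO and a median log2 fold change of 0.043. Atf3, a stress-induced partner named after its values were seen, was left out by the filter. It was at 0.873, 2.67, 1.96 and 1.151 CPM in CTL1 to CTL4 and at 0, 0, 0.523 and 0 CPM in cKO1 to cKO4, low but without overlap. Atf3 was near the limit of detection and was not tested. Each value of 0 allows up to 3 counts, and the share of genes without overlap covers the tested genes only. One estimate, for Maf, had an unadjusted p below 0.05. Maf, a large Maf protein, had levels of 105 ± 19.4 CPM in CTL and 133 ± 14.1 in cKO, with a log2 fold change of 0.33 (SE 0.14). Atf2, a CREB-related partner of c-Jun, stood at -0.22 (SE 0.14), with overlapping libraries.

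Of 13 upstream transcription factors, all 13 were tested, 8 were higher and 5 lower, the median was 0.068 and 0 had an unadjusted p below 0.05. Elk3, an SRF partner, had a log2 fold change of 0.24 (SE 0.16), the CRE-binding factor Creb1 of -0.20 (SE 0.42) and the SRF coactivator Mrtfb of 0.16 (SE 0.26). All 16 genes of the list of MAP kinases and their target kinases were tested, with 3 higher, 13 lower and a median of -0.067. The 1 gene at an unadjusted p below 0.05 was Map3k5, which encodes the stress kinase ASK1. Its levels were 52.6 to 60.9 CPM in CTL and 39.4 to 52.3 in cKO, without overlap, with a log2 fold change of -0.34 (SE 0.11). The JNK-activating kinases Map2k7 (-0.20, SE 0.30) and Map2k4 (-0.16, SE 0.12) overlapped between genotypes.

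Of 13 feedback phosphatases and decay factors, 11 were tested, 5 were higher and 6 lower, and the median was -0.067. In each direction 1 gene had an unadjusted p below 0.05, Zfp36 among the lower and the ERK phosphatase Dusp5 among the higher (1.31, SE 0.48, at a mean of only 8.72 CPM and named after its values were seen). Zfp36, whose product speeds decay of AU-rich mRNAs such as that of Fos, had 206 ± 18.2 CPM in CTL and 160 ± 19.1 in cKO, with overlapping libraries and a log2 fold change of -0.37 (SE 0.11). Dusp1, a phosphatase of JNK and p38, was at -0.23 (SE 0.14) and Zfp36l1 at 0.18 (SE 0.15).

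Of 22 other rapid-response genes, 20 were tested, with 5 higher, 15 lower and a median log2 fold change of -0.26, and 2 had an unadjusted p below 0.05, both lower. These were Ier2 and the nuclear receptor gene Nr4a2, named after its values were seen (-1.41, SE 0.46, at a mean of 2.41 CPM). Egr1, an SRF target often induced with Fos and chosen here after its values were seen, was at -0.10 (SE 0.14), a mean level of 165 CPM. Trib1, a pseudokinase, had the largest estimate among those with at least 10 CPM, -0.996 (SE 0.53), with 22.5 to 81.8 CPM in CTL and 7.38 to 49.9 in cKO. Ier2 was at -0.42 (SE 0.16) and the cytokine signaling inhibitor Socs3 at -0.39 (SE 0.33), both with overlapping libraries.

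Of 16 known AP-1 target genes, 8 were tested, and the 8 others lacked a count in at least 1 library, a filter that can drop a gene because it is low in 1 genotype. Among those dropped, the cytokine gene Il6 was at 0.485, 0.889, 1.118 and 1.58 CPM in CTL1 to CTL4 and at 0 in all 4 cKO libraries, each of which allows up to 3 counts. It was near the limit of detection, was not tested and is named after its values were seen. Ptgs2 and Plau were at 0 in every library. Of the 8 tested, 2 were higher and 6 lower in cKO, with a median of -0.17 and 0 at an unadjusted p below 0.05. The adhesion receptor Cd44 was at -0.37 (SE 0.23), the metalloproteinase inhibitor Timp1 at -0.34 (SE 0.18) and the angiogenic factor Vegfa at -0.29 (SE 0.28). The collagenase gene Mmp13, a classical AP-1 target chosen here after its values were seen, had a mean level of 1661 CPM and a log2 fold change of -0.039 (SE 0.21).

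**Figure D5:**
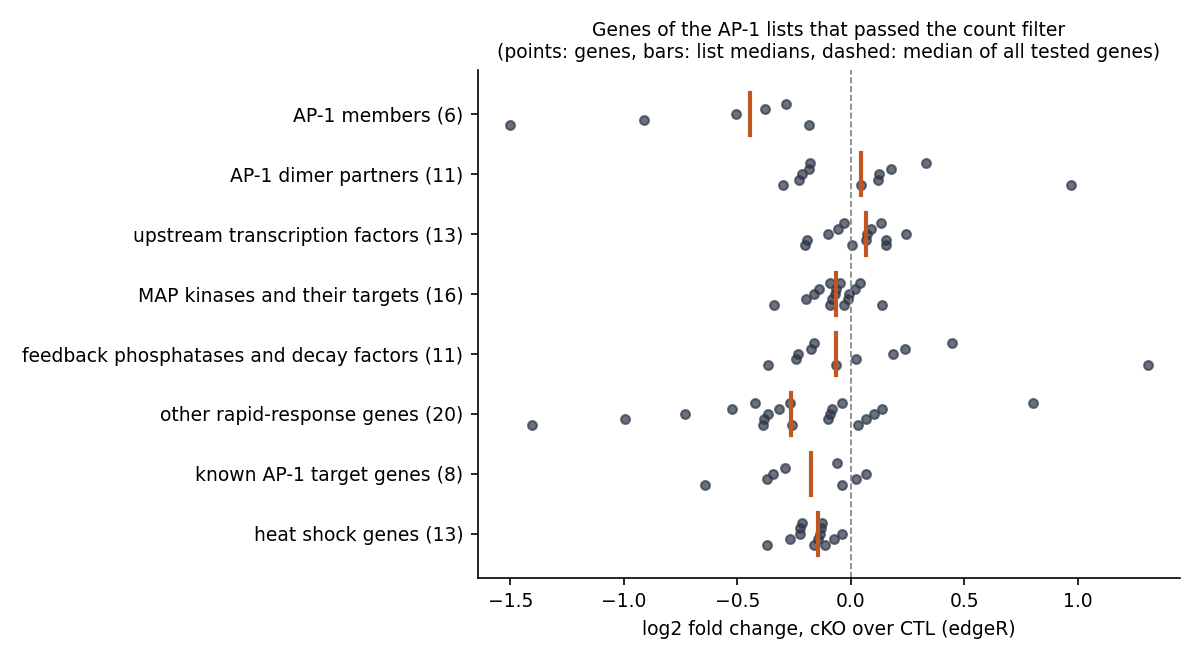
Log2 fold change of cKO over CTL for each gene of the AP-1 lists with a count in every library (points), with the number tested in parentheses. Orange bars are list medians and the dashed line is the median of all genes tested. The 6 members have a median of -0.44 and the other lists medians from -0.26 to 0.068.

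The estimates of the heat shock genes had the sign of those of the members. Of 14 genes, 13 were tested, and all 13 had estimates below 0, with a median of -0.14, 2 genes at an unadjusted p below 0.05 and 0 past the adjusted threshold. Their summed level was 2614 to 3387 CPM in CTL and 2370 to 3259 in cKO, overlapping. The chaperones Hsp90aa1, at -0.37 (SE 0.12), and Hspd1, at -0.27 (SE 0.09), had every cKO library below every CTL library, and Hspe1 was at -0.23 (SE 0.15). Among all genes tested, the shares were 50.2% with estimates below 0, 4.43% at an unadjusted p below 0.05 (edgeR) and 1.29% with every cKO library below every CTL library. The part of the heat shock genes in the Fos and Fosb values was not tested.

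Markers of the cells in the gate were measured beside the members. The 10 MSPC markers summed to 55635 to 67781 CPM in CTL and 56741 to 68710 in cKO, and the 6 osteoblast markers to 8374 to 12295 and 9212 to 14408. Single genes led both sums, Cxcl12 at a mean of 44815 CPM and Ibsp at 10691. The other osteoblast markers had means of 358 (Col1a1), 292 (Alpl), 72.3 (Sp7), 7.18 (Dmp1) and 1.67 CPM (Bglap). The 16 blood cell markers summed to 69.8 to 234 CPM in CTL and 155 to 259 in cKO, with 2 and 3 of them at 0 in all libraries of the group. The 7 endothelial markers summed to 4.25 to 5.59 and 2.28 to 6.30 CPM, with 3 and 2 at 0. Each of these ranges overlapped between genotypes. The 6 blood cell markers with a count in every library all had positive estimates in cKO, with a median log2 fold change of 0.48 and 0 past the adjusted threshold or at an unadjusted p below 0.05 (edgeR), and their part in the member values was not tested. Igha, an immunoglobulin gene, had 2945 counts in CTL3 and 0 to 38 in the other libraries. Without CTL3 the log2 fold changes were -0.92 for Fos and -1.50 for Fosb.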

How the data were processed

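RNA of MSPCs from 4 CTL and 4 cKO mice, described as biological replicates, was sequenced. The authors aligned the reads to GRCm38 with HISAT2, counted them per gene with HTSeq, per the labels and methods, and deposited raw counts for 52636 genes without normalization. Of these, 52403 matched a symbol by identifier. The members, gene lists and tests were chosen with earlier results of these data known.

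Counts were scaled by TMM, and the 14598 genes with a count in every library were fitted in R 4.3.3 by glmQLFit and glmQLFTest of edgeR 4.0.16, with p-values adjusted by Benjamini-Hochberg and a threshold of 0.05. Log2 CPM used a prior count of 2. Sign-flip tests on log2 (counts per kilobase + 1) used scipy 1.17.1, with lengths as the union of GENCODE M21 exons, a release that may differ from the authors'. Scripts were tested on simulated counts. Besides all members, the 3 genes of each list with the largest change at a mean of at least 10 CPM were named, and for likeness 5 genes per member. One gene that this rule names is not reported here. Alternatives were other scalings, filters, DESeq2 1.42.0, limma-voom 3.58.1, a title number term, a replicate block and each library left out. The study corrected for a batch that is not named, so the main model has no batch term. With that correction, the study's DESeq2 likelihood ratio test did report genes differing between genotypes in these libraries.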

Additional observations from a re-analysis of the deposited data

Results flagged for a closer look

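In 64 groups of 4 libraries (members, subfamily measures and named list genes in each genotype), Dixon's ratio of the gap beside the most extreme library to the whole range was examined, and 4 groups exceeded the 95% critical value, where chance gives about 1 in 20, or 3.2. Fosl1 in CTL had a ratio of 0.869, since CTL2 stood at 2.85 CPM and the others at 0.280 to 0.615. The other 3 were kinase genes in CTL. Map3k5 had a ratio of 0.877, with 1 library at 52.6 CPM below the others at 59.9 to 60.9, and its genotypes stayed apart all the same. Map2k7 had a ratio of 0.842, with the highest library at 33.1 CPM above 21.6 to 23.4, and Map2k4 a ratio of 0.834, with 87.6 CPM above 65.9 to 69.5.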

How the results depend on the processing

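Fos kept its direction in every alternative, as did Fosb in all but the minimum of 10 CPM, which removed it. The genotype difference turned positive inside title numbers 67 to 86 for Fosl2 (0.13) and Fosl1 (0.17), which were negative with all libraries. The cause was not tested. Fos and Fosb were the 2 members without overlap under all 3 scalings.

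The number of genes called between genotypes, 0 in edgeR, was 23 with DESeq2's Wald test, 47 with its likelihood ratio test and the title number range, and 1 (G430095P16Rik) with filterByExpr or without a filter. It was 0 to 0 with each library left out, with 554 to 724 at an unadjusted p below 0.05. Between title number ranges the count of 2 became 380 with DESeq2's Wald test, 1 with RLE scaling, 5 at a mean of at least 10 CPM, 4 without a filter and 0 without the genotype term, and 0 to 4 with each library left out. Dividing by no length weakened 2 level steps, Jund above Fos (0.30) and Junb above Jun (0.23). Fos above Junb ranged from 0.15 to 0.47 with 1 library left out and passed only without cKO2. The list counts were 0 to 0 with each library left out, while estimates below 0 numbered 12 to 16 of the other rapid-response genes and 11 to 13 of the heat shock genes, and the medians of the dimer partners (-0.045 to 0.13), upstream factors (-0.024 to 0.061) and feedback genes (-0.082 to 0.0073) took either sign. The member median was -0.63 without cKO3. Other medians moved by over 1.5 times. Those of the AP-1 targets moved to -0.44 without cKO4 and -0.11 without CTL1, and of the heat shock genes to -0.24 without cKO1 and -0.066 without cKO2. The median of the other rapid-response genes moved to -0.13 without CTL2 and of the MAP kinase list to -0.040 without cKO3. Blood cell markers moved to 0.95 without CTL1 and 0.28 without CTL4. MSPC markers, at 0.055, moved to 0.011 without CTL2 and 0.11 without CTL4. Osteoblast markers, at 0.21, moved to 0.092 without CTL3. The 1 endothelial marker tested, at -0.33, moved to 0.027 without cKO1 and -0.66 without cKO4. Using the longest coding transcript as length, an alternative chosen after seeing the data, put Fosb at 2.56 and Fosl2 at 2.73 CPM per kilobase and changed no call.

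Whether CTL and cKO libraries of the same replicate number form pairs is not given, and the main model did not pair them. Deviations from the group means correlated at 0.131, 0.176, 0.0844 and 0.0572 for numbers 1 to 4, and 7 of 8 libraries correlated best with their own number. The replicate block gave 0 genes, with 812 at an unadjusted p below 0.05. With 4 mice per genotype, no list count shows that genes do not differ, and Fosl1, Fosb and Fosl2 rest on fewer counts than the other members.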
